A study of Bos taurus with 138 samples.

Results

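In bovine 2-cell embryos, mRNAs recovered with polysomes were compared with mRNAs recovered with monosomes inside the same sucrose gradients. The libraries were those of fractions F8, F9 and F10 (polysomes) and F3, F4 and F5 (monosomes) of gradients A and B at the 2-cell stage, which makes 12 of the 138 libraries of the series. The counts of the 3 fractions of a class were summed within each gradient, and the sums were scaled to their totals. Of 16706 genes in the table, 13008 passed the filter on low counts and were tested.

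The study fractionated lysates of oocytes and embryos at 6 stages on sucrose gradients, in which an mRNA that carries more ribosomes sediments further, and sequenced each of 10 fractions of 2 gradients per stage. The 2-cell embryos were of Bos taurus, without any genetic change, and were made in vitro from slaughterhouse oocytes that were matured in culture and fertilized with the semen of 1 bull. The stages set beside them here came from the same system and were immature oocytes at the germinal vesicle stage (GV), mature oocytes at metaphase II (MII) and 8-cell embryos. Each gradient held a pool of oocytes or embryos, so that a value describes a pool and not an embryo. Cycloheximide, which halts ribosomes on the mRNA, was added to the culture before collection and was also in the lysis buffer.

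A single ribosome on an mRNA gives a monosome, and several ribosomes moving along the same mRNA give a polysome, so an mRNA found mainly in heavy fractions is taken to be translated more actively than one found mainly in light fractions. At the 2-cell stage the bovine embryo still depends on mRNA that the oocyte stored, and the main activation of the embryonic genome comes later, around the 8-cell stage. How far the cleavage divisions depend on which stored mRNAs are loaded with ribosomes was not tested here. Genes of the mitochondrial genome are an exception to that reading of heavy fractions. Their mRNAs are translated inside mitochondria on ribosomes of their own.

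The 12 libraries held 9155968 to 12234878 counts each (median 10565901). The number of genes with counts was lower in F10 (10955 in gradient A and 11088 in gradient B) than in F3 (13591 and 13981) at similar depth. Pearson's r between gradients A and B, on log2(CPM + 1) over 11759 genes, was 0.955, 0.939 and 0.962 in F3, F4 and F5 and 0.913, 0.875 and 0.803 in F8, F9 and F10. F6 of gradient A stood apart, with an r of 0.717 to F6 of gradient B. It enters the profiles over F3 to F10 but neither pool. Each fraction was amplified on its own before sequencing, so a level is a share of the RNA of that fraction, in CPM, which is the count divided by the scaled library size, and the absolute amount of an mRNA along the gradient cannot be read from it.

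All 13 oocyte markers had counts, and 12 of them had counts in all 12 libraries. DDX4 had counts in 11. Among 24 markers of cumulus and granulosa cells, the somatic cells that surround the oocyte, FSHR had 1 count in the 12 libraries together and DCN 0, and 13 passed the filter. The summed level of this list was 1012 and 1377 CPM in the polysome pools of gradients A and B and 1546 and 1855 CPM in the monosome pools. STAR made up most of it. PTGS2 and SERPINE2 were the members that passed the test, both higher in monosomes (log2 differences of -1.85 ± 0.41 and -1.67 ± 0.25, SE). Of 17 sperm markers, PRM1, PRM2, TNP2, SPACA1, ACR and ACTL7A were at 0. LDHC, the lactate dehydrogenase subunit of sperm, had the most counts of this list (14127). It passed the test and was higher in monosomes (-1.62 ± 0.28). In GV oocytes, which were collected before fertilization, LDHC was at 176 and 116 CPM in polysomes and 156 and 143 CPM in monosomes, so its counts are not particular to sperm. The summed level of the 7 sperm markers tested and the others of that list was 109 and 88.6 CPM in polysomes against 218 and 198 CPM in monosomes. The oocyte markers had a median log2 difference of -0.16, with 1 higher in polysomes and 1 in monosomes (2 and 3 with the replicate block described below). The part of other cells in the differences below was not tested, and in such pools fewer cells of a type and less RNA per cell cannot be told apart.

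At the 2-cell stage, 251 genes were higher in polysomes and 379 were higher in monosomes at an adjusted p-value below 0.05 by the quasi-likelihood F test of edgeR on the 4 pools. These are 1.93% and 2.91% of the genes tested. Their adjusted p-values lay close together, between 0.0415 and 0.0498, and 3497 genes had an unadjusted p-value below 0.05. The median log2 difference was 1.49 among genes higher in polysomes and -1.55 among those higher in monosomes, against 0.00 over all genes tested, where the middle 50% lay between -0.65 and 0.63. Of the genes higher in monosomes, 13 had 3 counts or fewer in the polysome pools together, and no fold is given for them.

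The polysome and monosome pools of a letter came from the same gradient. When this pairing entered the test as a replicate block, 1005 genes (7.73%) were higher in polysomes and 1138 (8.75%) in monosomes, and these included all 630 genes called without it, in the same direction. Among the 6 fractions used, F10 had the lowest r between the gradients, and fits without it were added after the data were seen. Without F10, 63 genes were called higher in polysomes and 223 higher in monosomes, and with the replicate block 540 and 780. With gradient A or gradient B of the 2-cell embryos alone, and the spread taken from GV and MII oocytes, 0 genes were called by the same edgeR test, while 1472 (without A) and 1995 (without B) had an unadjusted p-value below 0.05. Such a fit leaves a single polysome pool and a single monosome pool of 2-cell embryos. It therefore cannot show on which gradient a call below rests.

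**Figure D1:**
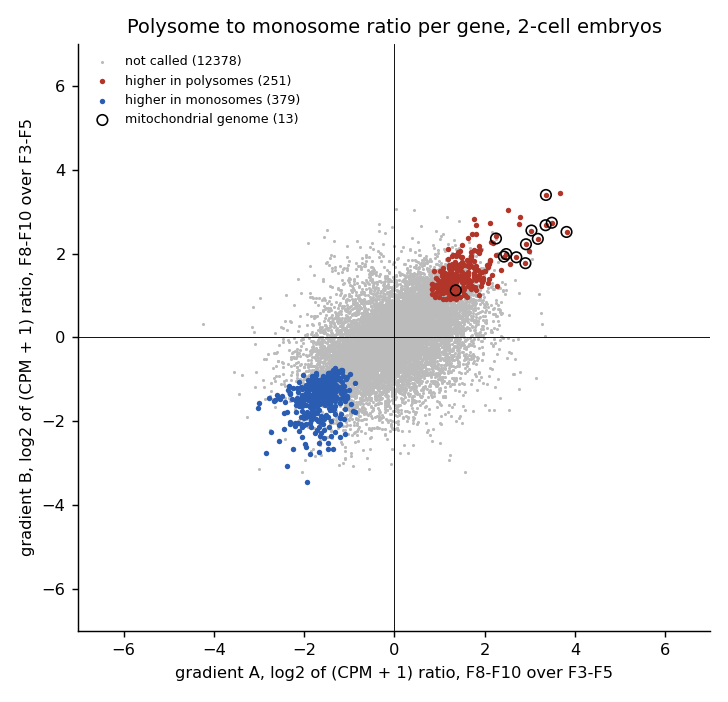
Each point is a gene of 2-cell embryos, with the log2 ratio of polysome to monosome level (CPM + 1) in gradient A on the x axis and in gradient B on the y axis. The 251 genes called higher in polysomes (red) and the 379 called higher in monosomes (blue) sit in opposite corners, and the 13 genes of the mitochondrial genome (open circles) lie at the upper right.

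Across the 13008 genes, which are not independent replicates, the log2 ratios of gradients A and B had a Pearson's r of 0.519 and the same sign in 69.8% of genes. The agreement depended on the level. Among 2190 genes with a mean of at least 100 CPM, r was 0.848 and 83.8% had the same sign, and these genes held 118 of the calls for polysomes and 224 of those for monosomes. Among 1230 genes below 1 CPM, r was 0.223 and 56.2% had the same sign, with 0 and 6 calls. Of the 250 genes called higher in polysomes with at least 10 CPM there, 201 had all 3 heavy fractions above all 3 light fractions in each gradient, and 290 of 358 genes called higher in monosomes showed the reverse. Over all genes tested, without a cut at 10 CPM, 6.58% and 7.49% were separated in these ways. The called genes were selected on sums of these same fractions, so their separation is a description and no separate evidence.

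The profiles over F3 to F10 showed where in the gradient the difference lay. Of the 251 genes higher in polysomes, 96 had their highest level in F10 in both gradients, as did 5.48% of all genes tested. Of the 379 genes higher in monosomes, 162 had their highest level in F3 in both gradients, as did 6.77% of all genes tested. Called genes were selected for a difference between these ends, so the shares are a description.

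Genes with the largest differences towards polysomes were named by a rule on size, level and separation of the fractions. The rule asks for separated fractions in both gradients, so agreement of the gradients in these genes is part of their selection. CSTB, the cysteine protease inhibitor cystatin B, was at 150.1 and 138 CPM in the polysome pools and 30.9 and 25.1 CPM in the monosome pools of gradients A and B. The 4 values did not overlap between classes (log2 difference 2.36 ± 0.28, SE), and the level rose from 31.2 and 22.6 CPM in F5 to 211 and 192 in F10. IFITM1, an interferon-induced membrane protein, had the largest difference by this rule at 10.2 and 10.4 CPM against 0.633 and 0.557 CPM (4.11 ± 0.59). Both of its monosome values were below 1 CPM.

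A pair of genes of nonsense-mediated decay, the pathway that removes mRNAs with early stop codons, stood among the largest differences. UPF2, a core factor of the pathway, was at 34.3 and 32.3 CPM in the polysome pools and 5.19 and 3.06 CPM in the monosome pools (3.01 ± 0.42). DHX34, a helicase of the same pathway, was at 28.1 and 22.8 CPM in the polysome pools and 3.29 and 2.63 CPM in the monosome pools (3.1 ± 0.42). The level of DHX34 was uneven among heavy fractions, at 30.8, 4.76 and 47.5 CPM in F8, F9 and F10 of gradient A and 5.21, 47.0 and 11.8 CPM in gradient B.

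The other genes that the rule named towards polysomes were PDS5A, a cohesin regulator (2.45 ± 0.49), CHD7, a chromatin remodeler (2.37 ± 0.47), GCC2, a golgin (2.49 ± 0.45), AP5Z1, a subunit of the AP-5 adaptor (2.23 ± 0.39), A1BG (2.60 ± 0.48), the histone gene H4, and ND6 and COX1 of the mitochondrial genome. That all of them were higher in polysomes in each gradient follows from the rule. Without F10, IFITM1, UPF2, DHX34, CSTB and AP5Z1 still passed, and PDS5A, CHD7, GCC2 and A1BG had adjusted p-values of 0.0512, 0.0622, 0.0588 and 0.0933 by edgeR.

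Towards monosomes, the largest difference by the same rule was that of NCOA5, a coactivator of nuclear receptors, at 24.4 and 39.3 CPM in the monosome pools and 5.59 and 2.68 CPM in the polysome pools (-2.94 ± 0.50). APEX1, the endonuclease of base excision repair, was at 141 and 176 CPM against 20.2 and 36.2 CPM (-2.49 ± 0.36). Its level fell from 187 and 253 CPM in F3 to 94.2 and 104 CPM in F5, and was at most 38.1 CPM in any heavy fraction. DPH5, an enzyme of diphthamide synthesis on elongation factor 2 (-2.38 ± 0.45), DDX19B, a helicase of mRNA export (-2.37 ± 0.51), the Hsp70 partner BAG1 (-2.37 ± 0.51), the anchoring protein AKAP6 (-2.48 ± 0.55) and FAM32A (-2.40 ± 0.40) were also named. So were ATP10B, a lipid flippase (-2.81 ± 0.43), CTTNBP2 (-2.56 ± 0.45), FRMD4A (-2.51 ± 0.47), BASP1 (-2.46 ± 0.44) and HSPA1L (-2.67 ± 0.55), an Hsp70 gene that can share reads with near-identical copies. Without F10, APEX1, DPH5 and FAM32A still passed, and the other 9 had adjusted p-values between 0.0515 and 0.0723 by edgeR.

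**Figure D2:**
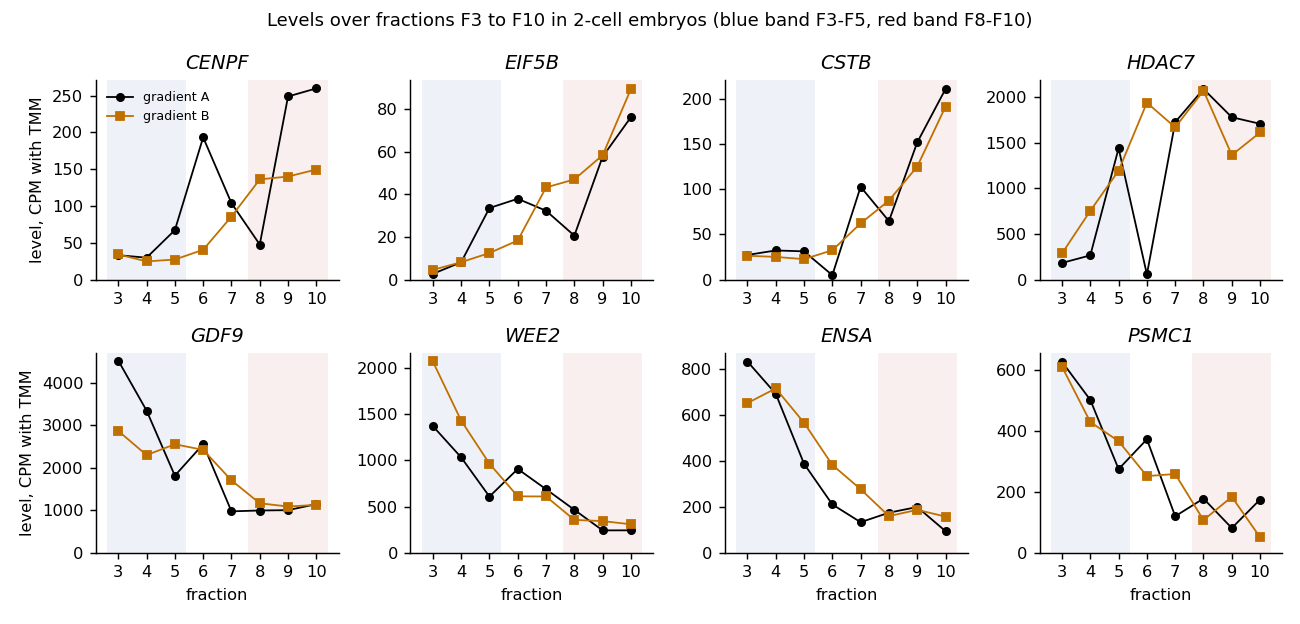
Levels of 8 genes in CPM with TMM factors (y axis) over fractions F3 to F10 (x axis) in gradients A (circles) and B (squares) of 2-cell embryos. CENPF, EIF5B, CSTB and HDAC7 in the upper row are higher in the pools of F8 to F10 (red band). GDF9, WEE2, ENSA and PSMC1 in the lower row are higher in those of F3 to F5 (blue band). In gradient A, CENPF and EIF5B were lower in F8 (47.6 and 20.6 CPM) than in F5 (67.1 and 33.6 CPM). The level of HDAC7 of 55.5 CPM in F6 of gradient A belongs to the library that stood apart.

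The counts of each gene list that follows stand beside the shares over all genes tested, 1.93% towards polysomes and 2.91% towards monosomes, or 7.73% and 8.75% with the replicate block. Lists such as the lysosomal genes, with 2 and 3 of 70, or the decay factors, with 2 and 2 of 57, lay near those shares. Counts of genes with the same sign in both gradients stand beside those over all 13008 genes tested. Of these, 4347 had a positive ratio in both gradients and 4733 a negative one.

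Genes of the cell cycle, which drive the cleavage divisions, were found on both sides. Of 67 cyclin, kinase and anaphase-promoting complex (APC/C) genes tested, 4 were higher in polysomes and 7 in monosomes (8 and 11 with the replicate block), and the median log2 difference was 0.01. WEE2, the oocyte kinase that inhibits CDK1, was at 314 and 343 CPM in the polysome pools and 1001 and 1506 CPM in the monosome pools (-1.93 ± 0.26). ENSA, an inhibitor of the phosphatase PP2A at mitotic entry, was at 158 and 173 against 639.7 and 655 CPM (-1.97 ± 0.22). Every monosome fraction of WEE2 and of ENSA was above every polysome fraction of the same gene.

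The kinase that WEE2 inhibits was on the same side, CDK1 at 38.0 and 53.5 CPM in polysomes against 109 and 121 CPM in monosomes (-1.33 ± 0.29). Its partner cyclin B2 (CCNB2, -1.24 ± 0.22), its activating phosphatase CDC25C (-1.03 ± 0.22), CDK2 (-1.41 ± 0.29) and cyclin H (CCNH, -1.53 ± 0.31) were also higher in monosomes. On the polysome side stood ANAPC2, the cullin subunit of the APC/C, at 188 and 204 CPM in the polysome pools and 70.5 and 63.8 CPM in the monosome pools (1.54 ± 0.24). AURKC, the Aurora kinase of oocytes, was at 560.1 and 630.5 CPM against 270.5 and 250.4 CPM (1.19 ± 0.21). Cyclin F (CCNF, 1.44 ± 0.28) and cyclin O (CCNO, 0.97 ± 0.21) completed the 4. Without F10, WEE2, ENSA, CCNB2, ANAPC2 and AURKC still passed, and the other 6 had adjusted p-values between 0.0515 and 0.0852 by edgeR. Those of these genes that the rule did not name were named because they passed the test, after their values were seen, as were the called members of the lists that follow.

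Of 78 kinetochore and spindle genes, 3 were higher in polysomes and 8 in monosomes (8 and 12 with the replicate block), with a median of 0.10. CENPF, a large kinetochore protein, was at 197 and 145 CPM in the polysome pools and 44.1 and 29.1 CPM in the monosome pools (2.23 ± 0.32). TTK, the kinase of the spindle checkpoint (1.53 ± 0.34), and SMC2, an ATPase subunit of condensin (1.62 ± 0.34), were the others. NCAPH, another condensin subunit, differed in the opposite direction, at 77.6 and 57.1 CPM in polysomes against 244 and 294 CPM in monosomes (-2.0 ± 0.27). The checkpoint protein BUB3 was at 445 and 573 against 1710 and 1342 CPM (-1.58 ± 0.24), and RACGAP1, which acts in cytokinesis, at 225 and 251 against 825 and 696 CPM (-1.68 ± 0.22). ZWINT (-1.73 ± 0.26), CENPO (-1.71 ± 0.26), HAUS8 (-1.43 ± 0.30), KIF2C (-1.20 ± 0.22) and CDCA8 (-1.01 ± 0.23) had smaller differences towards monosomes than NCAPH. Without F10, TTK and SMC2 had adjusted p-values of 0.175 and 0.11 by edgeR, while CENPF passed.

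Of 67 DNA replication genes, 1 was higher in polysomes and 5 in monosomes (8 and 17 with the replicate block), with a median of -0.22. RFC1, the large subunit of the clamp loader, was at 31.9 and 28.5 CPM in the polysome pools and 9.31 and 7.15 CPM in the monosome pools (1.87 ± 0.36). RFC5, a small subunit of the same complex, was on the other side at 55.0 and 83.2 CPM in polysomes against 217 and 211 CPM in monosomes (-1.63 ± 0.28). GINS1 (-1.63 ± 0.33), GINS4 (-1.19 ± 0.24), RPA2 (-1.51 ± 0.27) and ORC6 (-1.33 ± 0.29), which act at the origin and the fork, were higher in monosomes. Without F10, the adjusted p-value of RFC1 was 0.156 by edgeR.

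Core and linker histones had the largest median of the nuclear-encoded lists, 0.95 over 19 genes tested (0.45 in gradient A and 0.81 in gradient B). Of these, 3 were higher in polysomes and 0 in monosomes (7 and 1 with the replicate block), and 14 had a positive ratio in both gradients. H4 was at 435 and 170.1 CPM in the polysome pools and 54.5 and 39.9 CPM in the monosome pools (2.68 ± 0.46), and rose from 195 and 117 CPM in F8 to 695 and 260.5 CPM in F10. HIST3H2A (1.90 ± 0.35) and HIST1H2AG (1.61 ± 0.34) were the other members. The oocyte linker histone H1FOO was at 1296 and 1606 CPM in the polysome pools and 1215 and 913 CPM in the monosome pools and did not pass (0.45 ± 0.24, adjusted p = 0.277, edgeR). Without F10, 0 of the 19 passed (edgeR), or 4 towards polysomes and 1 towards monosomes with the replicate block, and the median was 1.0. Histone genes have near-identical copies, and reads can be split among them.

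**Figure D3:**
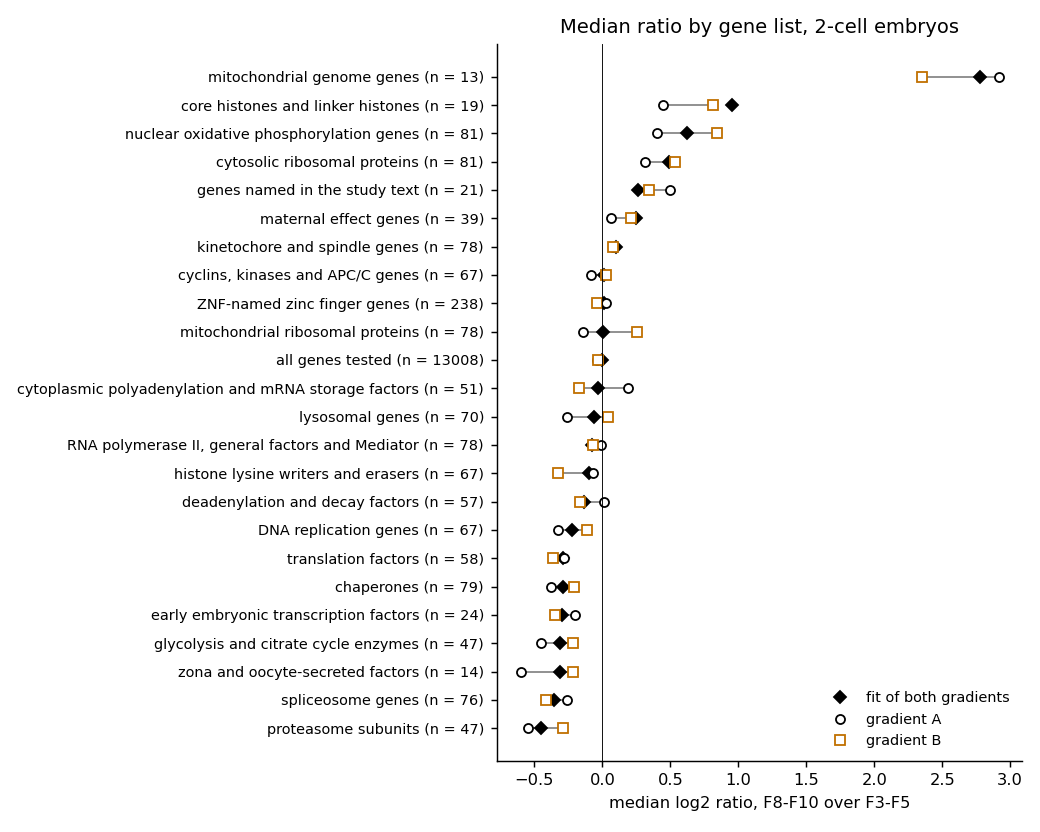
Median log2 ratio of polysome to monosome level (x axis) for each gene list other than the cell type markers (y axis, with the number of genes tested) in 2-cell embryos, from the fit of both gradients (filled) and from gradient A (circle) and gradient B (square) alone. The mitochondrial genome lies farthest to the right at 2.78, histones, nuclear oxidative phosphorylation genes and cytosolic ribosomal proteins follow, and proteasome and spliceosome genes lie farthest to the left of the lists drawn.

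The 13 genes of the mitochondrial genome had the largest median of all lists, 2.78 (2.91 in gradient A and 2.35 in gradient B), and 11 of them were higher in polysomes. ND5, a subunit of complex I, was at 149.6 and 127 CPM in the polysome pools and 13.7 and 11.1 CPM in the monosome pools (3.48 ± 0.30). COX1, the catalytic subunit of complex IV, was at 759.9 and 290.0 CPM in the polysome pools and 101 and 84.3 CPM in the monosome pools (2.50 ± 0.44). The log2 differences of the other called genes ran from 2.27 ± 0.33 in COX2 to 3.56 ± 0.47 in ND6. ATP8 (2.78 ± 0.67, adjusted p = 0.0566, edgeR) and ND4L (1.79 ± 0.72, adjusted p = 0.161) did not pass, and ATP8 did with the replicate block. ATP8 and ATP6, ND4L and ND4, and ND5 and ND6 overlap on the mitochondrial genome, and the kit does not mark strand, so their reads cannot be told apart in full.

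The share of the mitochondrial genome was highest at the bottom of the gradient. Its share of counts was 0.610% in F10 of gradient A and 0.275% in F10 of gradient B, against 0.0230 to 0.0403% in F3, F4 and F5. In F8 it was 0.0369% in gradient A, within the range of the light fractions, and 0.114% in gradient B, and in F9 it was 0.211% and 0.0704%. Without F10, 5 of the 13 genes (ND1, ND2, ND4, ND5 and CYTB) passed and the median was 1.75, and with the replicate block 10 passed. The mRNAs are not substrates of the cytosolic ribosomes that make a polysome, and whether mitochondria or their ribosomes sedimented with these fractions was not tested.

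**Figure D4:**
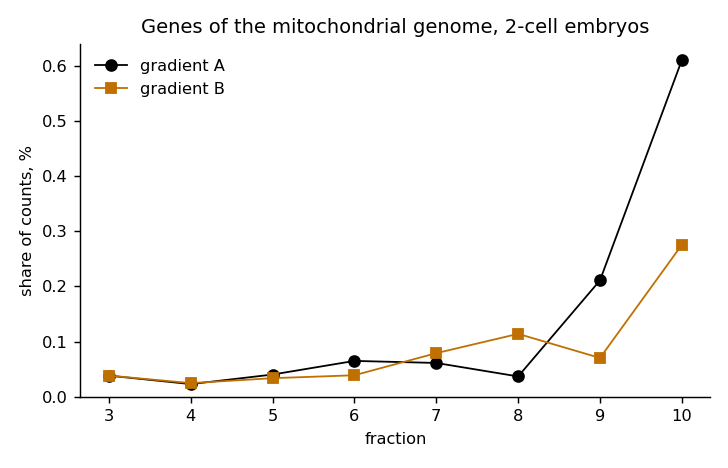
Share of all counts, in percent (y axis), that came from genes of the mitochondrial genome in fractions F3 to F10 (x axis) of gradients A and B of 2-cell embryos. The share lies at or below 0.114% up to F8 and reaches 0.610% and 0.275% in F10.

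Nuclear genes of oxidative phosphorylation, whose proteins join the mitochondrial ones in the same complexes, had a median of 0.62 (0.40 in gradient A and 0.85 in gradient B). Of 81 tested, 7 were higher in polysomes and 2 in monosomes, or 28 and 4 with the replicate block, and 51 had positive ratios in both gradients against 15 with negative ones. ATP5MC2, which encodes the c-ring subunit of ATP synthase, was at 119 and 85.0 CPM in the polysome pools and 30.4 and 28.2 CPM in the monosome pools (1.80 ± 0.30). UQCRQ of complex III was at 338 and 329 CPM against 119 and 93.5 CPM (1.65 ± 0.24). ATP5ME (1.61 ± 0.33), COX8A (1.52 ± 0.30), ATP5MC1 (1.32 ± 0.29), CYC1 (1.26 ± 0.28) and COX6A1 (1.24 ± 0.27) were the other 5. NDUFV2 of complex I (-1.52 ± 0.27) and the ATP synthase subunit ATP5F1A (-1.24 ± 0.26) were higher in monosomes. Without F10, only UQCRQ still passed towards polysomes, 18 genes did with the replicate block, and the median was 0.62.

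Cytosolic ribosomal proteins had a median of 0.49 over 81 genes tested, with 51 positive and 24 negative in both gradients. RPS16 (217 and 204 CPM in the polysome pools and 84.5 and 77.2 CPM in the monosome pools; 1.38 ± 0.24), RPS2 (1.39 ± 0.28) and RPL28 (1.21 ± 0.26) were higher in polysomes, and RPS4Y1 (-1.27 ± 0.27), which has a close copy, was among the 2 higher in monosomes. With the replicate block the counts were 16 and 10, and without F10 0 and 0 (edgeR), or 4 and 8 with the block. Mitochondrial ribosomal proteins had a median of 0.01 over 78 genes, with 2 higher in polysomes and 6 in monosomes (10 and 10 with the block). MRPS2 (1.23 ± 0.21) and MRPL41 (1.34 ± 0.26) stood on the polysome side, and MRPS9 (-1.73 ± 0.29), DAP3 (-1.61 ± 0.31), MRPL45 (-1.54 ± 0.28), MRPL44 (-1.50 ± 0.27), MRPL13 (-1.43 ± 0.31) and MRPL47 (-1.37 ± 0.29) on the monosome side.

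Among 58 translation factors, 2 were higher in polysomes and 5 in monosomes (4 and 11 with the replicate block), with a median of -0.29. EIF5B, the GTPase that joins the ribosomal subunits at the start codon, was at 54.4 and 66.3 CPM in the polysome pools and 15.4 and 8.54 CPM in the monosome pools (2.33 ± 0.39). EIF4EBP1, the repressor that binds the cap-binding factor eIF4E, was at 16.1 and 22.1 CPM against 5.16 and 5.11 CPM (1.89 ± 0.41). Of the factors higher in monosomes, 3 were subunits of eIF2B, the exchange factor that recharges eIF2: EIF2B3 (-1.64 ± 0.29), EIF2B1 (-1.59 ± 0.32) and EIF2B4 (-1.45 ± 0.25). The elongation factor EEF1A1 (-1.37 ± 0.22) and the helicase EIF4A1 (-1.12 ± 0.25) were the others. Without F10, EIF5B had an adjusted p-value of 0.0512 and EIF4EBP1 one of 0.0669 by edgeR.

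Of 79 chaperone genes, 8 were higher in monosomes and 1 in polysomes (23 and 3 with the replicate block), with a median of -0.29. CCT3, a subunit of the ring-shaped chaperonin that folds tubulin and actin, was at 433 and 429 CPM in polysomes against 1513 and 1519 CPM in monosomes (-1.81 ± 0.20). CCT7 (-1.48 ± 0.25) and CCT5 (-1.21 ± 0.23) also passed, and the 7 chaperonin subunits tested all had ratios below 0, from -1.81 to -0.21 (5 passed with the block). STIP1 (-1.31 ± 0.21), PDIA3 (-1.37 ± 0.27), DNAJC11 (-1.81 ± 0.38), HSPA1L and BAG1 were the other members on that side. HSPBP1, a nucleotide exchange factor of Hsp70, was on the polysome side at 1023 and 1052 CPM in the polysome pools and 388 and 318 CPM in the monosome pools (1.55 ± 0.22).

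Of 47 proteasome genes, 4 were higher in monosomes and 0 in polysomes (10 and 3 with the replicate block), and the median of -0.45 was the lowest of the functional lists. The ATPase subunit PSMC1 was at 146 and 119 CPM in polysomes against 468 and 475 CPM in monosomes (-1.83 ± 0.23), and PSMC3, another ATPase subunit, was at 97.2 and 116 against 382 and 361 CPM (-1.80 ± 0.23). PSMA6 (-1.38 ± 0.23) and PSMD6 (-1.28 ± 0.26) were the others. Of 47 glycolysis and citrate cycle enzymes, 4 were higher in monosomes and 0 in polysomes (11 and 1 with the block), with a median of -0.31. These were LDHB (-1.48 ± 0.27), FH (-1.50 ± 0.29), IDH1 (-1.63 ± 0.35) and PGAM1 (-1.35 ± 0.23).

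Of 70 lysosomal genes, 2 were higher in polysomes and 3 in monosomes (5 and 7 with the replicate block), with a median of -0.06, and all 5 encode subunits of the proton pump that acidifies lysosomes. ATP6V0B (1.37 ± 0.27) and ATP6V1F (1.35 ± 0.27) were higher in polysomes. ATP6V1A (-1.71 ± 0.27), ATP6V1B2 (-1.33 ± 0.26) and ATP6V1H (-1.19 ± 0.25) were higher in monosomes. Subunits of the same pump therefore differed in both directions.

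The genes of the oocyte program were divided. The list of zona pellucida and oocyte-secreted factors also held other oocyte genes, such as TCL1A and the kinase WEE2. Of its 14 genes tested, 3 were higher in polysomes and 2 in monosomes (4 and 5 with the replicate block), with a median of -0.31. GDF9, a growth factor of the oocyte, was at 1074 and 1152 CPM in polysomes against 3224 and 2618 CPM in monosomes (-1.39 ± 0.21), and its fractions F8 to F10 did not overlap with F3 to F5. BMP15, its partner, was at 4209 and 4888 against 5493 and 4701 CPM, where the pools overlapped (-0.16 ± 0.20, adjusted p = 0.647, edgeR). ASTL, the protease that cleaves the zona after fertilization, was at 3466 and 3381 CPM in the polysome pools and 1934 and 1512 CPM in the monosome pools (0.99 ± 0.21). OOSP2 (1.54 ± 0.29) and TCL1A (1.16 ± 0.23) were the other genes higher in polysomes, and WEE2, which the list also holds, was the other one higher in monosomes. ZP3, a zona glycoprotein, was at 4035 and 3426 CPM in the polysome pools and 2220 and 1554 CPM in the monosome pools and did not pass (0.98 ± 0.24, adjusted p = 0.0569), but did with the replicate block (adjusted p = 0.00553, edgeR).

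Of 39 maternal effect genes, whose products the embryo inherits from the oocyte, 3 were higher in polysomes and 2 in monosomes (7 and 5 with the replicate block), with a median of 0.25. OOEP, a member of the subcortical maternal complex, was at 1288 and 988 CPM in the polysome pools and 549.5 and 323 CPM in the monosome pools (1.38 ± 0.30). PLD6 (1.24 ± 0.23) and OOSP2 were the others on that side. CDH1, the adhesion protein E-cadherin, was at 131 and 135 CPM in polysomes against 459 and 367 CPM in monosomes (-1.63 ± 0.23), and ZAR1L was also higher in monosomes (-1.02 ± 0.22). NLRP8 had the highest mean level of the list and near equal pools of 11590 and 13620 against 14200 and 13730 CPM (-0.15 ± 0.18, adjusted p = 0.651, edgeR). Its levels peaked between the classes, in F6, at 31510 CPM in gradient A and 23330 CPM in gradient B, and were lowest in F3, at 5671 and 6101 CPM. The first of these F6 values comes from the library that stood apart.

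Of 57 deadenylation and decay factors, 2 were higher in polysomes and 2 in monosomes (4 and 7 with the replicate block), with a median of -0.13. CNOT7, a deadenylase of the CCR4-NOT complex, was at 118 and 117 CPM in the polysome pools and 52.8 and 45.8 CPM in the monosome pools (1.25 ± 0.26), and UPF2 was the other. In F8 of gradient A, CNOT7 was at 25.1 CPM, below its light fractions (40.7 to 63.3 CPM). Without F10 its adjusted p-value was 0.0759 by edgeR. TOB1, which recruits CCR4-NOT (-1.41 ± 0.30), and the RNA-binding protein CELF1 (-1.47 ± 0.31) were higher in monosomes. BTG4, the adaptor of CCR4-NOT in maternal mRNA clearance, was at 1653 and 2448 CPM in polysomes against 3260 and 3167 CPM in monosomes (-0.65 ± 0.24, adjusted p = 0.133, edgeR).

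Of 51 cytoplasmic polyadenylation and mRNA storage factors, 0 passed by edgeR without the replicate block and 1 and 3 with it, and the median was -0.03. MOS, the kinase of meiotic arrest, which that list also holds, had the highest level in it. It was at 6487 and 7390 CPM in the polysome pools and 4739 and 4182 CPM in the monosome pools (0.64 ± 0.19, adjusted p = 0.0846, edgeR). The 4 values did not overlap between the classes. Of 24 early embryonic transcription factors tested, of 31 in the table, 0 passed (0 and 3 with the block), and their median level was 4.58 CPM. ELF3, the member with the highest level, was at 478 and 694 against 313 and 461 CPM (0.60 ± 0.29, adjusted p = 0.234).

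Genes of transcription, chromatin and splicing were also divided. Of 78 genes of RNA polymerase II, general factors and Mediator, 5 were higher in polysomes and 2 in monosomes (11 and 6 with the replicate block). POLR2L (2.16 ± 0.43) and POLR2J (1.44 ± 0.24), small subunits of the polymerase, TAF10 (1.42 ± 0.29), GTF2H5 (1.30 ± 0.24) and MED22 (1.23 ± 0.27) stood on the polysome side, and TAF12 (-1.51 ± 0.28) and GTF2B (-1.15 ± 0.23) on the monosome side. The median was -0.08. Of 67 histone lysine writers and erasers, HDAC7, a histone deacetylase, was higher in polysomes at 1879 and 1703 CPM in the polysome pools and 649 and 759 CPM in the monosome pools (1.35 ± 0.21). ASH2L, a subunit of H3K4 methyltransferases (-2.08 ± 0.30), and the acetyltransferase KAT8 (-1.77 ± 0.37) were higher in monosomes. The counts were 2 and 7 with the replicate block, and the median was -0.10.

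Of 76 spliceosome genes, 2 were higher in polysomes and 4 in monosomes (5 and 18 with the replicate block), and 38 had negative ratios in both gradients against 14 with positive ones. The median was -0.36. PRPF4 of the tri-snRNP was at 248 and 265 CPM in polysomes against 1031 and 771 CPM in monosomes (-1.81 ± 0.24). PRPF38A (-1.87 ± 0.33), EFTUD2 (-1.28 ± 0.26) and SNRNP40 (-1.18 ± 0.24) were on the same side, and SF3B5 (1.36 ± 0.29) was among those on the other.

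Zinc finger genes with ZNF symbols, most of which encode DNA-binding proteins, were spread evenly around 0, with a median of 0.01 over 238 tested of 272. Of these, 1 was higher in polysomes and 5 in monosomes (11 and 18 with the replicate block). ZNF354B was at 63.7 and 45.2 CPM in the polysome pools and 20.4 and 15.5 CPM in the monosome pools (1.60 ± 0.34). ZNF346 (-1.95 ± 0.27), ZNF3 (-1.46 ± 0.25), ZNF410 (-1.42 ± 0.30), ZNF22 (-1.30 ± 0.28) and ZNF215 (-1.03 ± 0.23) were on the monosome side.

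Without F10, the counts towards polysomes and monosomes were 0 and 5 for translation factors, 1 and 7 for chaperones, 0 and 4 for proteasome genes, 0 and 3 for glycolysis and citrate cycle enzymes and 1 and 3 for lysosomal genes. They were 0 and 2 for zona and oocyte-secreted factors, 1 and 1 for maternal effect genes, 1 and 1 for decay factors, 0 and 4 for spliceosome genes, 1 and 2 for RNA polymerase II, general factors and Mediator, and 0 and 2 for ZNF genes (edgeR).

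Of 27 genes that the study names in its text, 21 were tested, and WFS1 and CST6 passed, both higher in polysomes (6 higher in polysomes and 1 in monosomes with the replicate block), with a median of 0.26. This list was chosen on these samples and is no independent evidence of a direction. WFS1, an endoplasmic reticulum protein, was at 143 and 161 CPM in the polysome pools and 57.6 and 64.7 CPM in the monosome pools (1.31 ± 0.25), and CST6, the protease inhibitor cystatin E/M, at 54.7 and 54.2 against 23.1 and 15.7 CPM (1.49 ± 0.33). Of the others, ZP3, described above, TAB1 (1.02 ± 0.26, adjusted p = 0.0618), CARS2 (0.90 ± 0.23, adjusted p = 0.0663) and MCM4 (-0.86 ± 0.24, adjusted p = 0.0727) were nearest to the threshold of the edgeR test. SUV39H1, UHRF1, KAT2A, XAB2, SUN1 and TUBG1 had log2 differences between 0.15 and 0.68, each with an adjusted p-value of at least 0.261.

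The heavy and light pools of GV oocytes, MII oocytes and 8-cell embryos, made in the same way, were set beside those of 2-cell embryos to ask where the 2-cell pattern differs. No library is shared between the stages. Across genes, which are not independent replicates, Spearman's rho of the 2-cell log2 difference was 0.496 with that of MII oocytes (12542 genes), 0.135 with GV oocytes (12671 genes) and 0.0719 with 8-cell embryos (11400 genes). Of the 251 genes higher in polysomes at the 2-cell stage, 249 of 251 tested had the same sign in MII oocytes, 180 of 249 in GV oocytes and 149 of 248 in 8-cell embryos. Of the 379 genes higher in monosomes, 337 of 377, 230 of 378 and 221 of 365 had the same sign. Over all genes the share with the same sign was 70.5% at MII, 52.7% at GV and 51.8% at the 8-cell stage. The tests within the stages called 248 genes at MII, 2371 at GV and 0 at the 8-cell stage (edgeR).

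The difference between stages was tested as an interaction in 1 edgeR fit of the 16 pools. Against MII oocytes, 2 genes (0.0139% of 14398 tested) had a different ratio, against GV oocytes 20 (0.139%), and against 8-cell embryos 2002 (13.9%). Fits of fewer stages, added after the data were seen, moved these counts. With the 12 pools of GV, MII and 2-cell, 17 genes (0.122%) differed from MII and 631 (4.54%) from GV, and with the 8 pools of 2-cell and 8-cell embryos 431 (3.11%) did. With the replicate block in the fit of 16 pools, 0, 0 and 1469 genes differed from MII, GV and 8-cell, and the unadjusted p-value was below 0.05 for 579 genes against MII and 1617 against GV. On simulated data the fit of 16 pools missed most planted differences from MII oocytes, so a low count does not show that the stages are alike.

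The 2 genes that differed from MII oocytes were PTTG1 and PLAUR. PTTG1, or securin, the protein that holds separase back until anaphase, was at 1242 and 1237 CPM in polysomes and 1047 and 748 CPM in monosomes of 2-cell embryos, scaled over the 16 pools. In MII oocytes it was at 3957 and 3268 against 281 and 276 CPM. The log2 ratio was lower at the 2-cell stage by 3.23 ± 0.41 (SE, adjusted p = 0.033, edgeR). The level in monosomes was higher than in MII oocytes and that in polysomes was lower. PLAUR, the urokinase receptor, was at 205 and 226 against 294 and 228 CPM in 2-cell embryos and at 224 and 195 against 31.3 and 35.3 CPM in MII oocytes, where the polysome levels overlapped and the monosome levels did not (difference -2.93 ± 0.39, adjusted p = 0.033).

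Against GV oocytes, 16 of the 20 genes had a lower ratio in 2-cell embryos and 4 a higher one. GDF9 was at 912 and 1570 CPM in polysomes and 294 and 282 CPM in monosomes of GV oocytes, and at 963 and 1037 against 2908 and 2309 CPM in 2-cell embryos. The polysome levels overlapped between the stages, and the monosome levels were several times higher at the 2-cell stage (difference -3.49 ± 0.50, SE, adjusted p = 0.0326, edgeR). In MII oocytes the gene had ratios of -1.49 and -0.72 on the log2 scale in gradients A and B, and of -1.59 and -1.16 in 2-cell embryos. RPL5, a ribosomal protein (-4.16 ± 0.51), the initiation factor EIF1AX (-5.08 ± 0.74), FAM32A (-3.14 ± 0.54) and RACGAP1 (-2.26 ± 0.35) differed in the same direction.

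On the other side, the zinc finger gene ZNF574 was at 563 and 851 CPM in polysomes and 280.0 and 433 CPM in monosomes of 2-cell embryos, and at 258 and 257 against 696 and 635 CPM in GV oocytes (difference 2.36 ± 0.40, adjusted p = 0.0482, edgeR). LLGL2, a cell polarity gene, was at 291 and 326 against 151 and 219 CPM and at 64.5 and 117 against 479.9 and 1028 CPM (3.80 ± 0.65). RNF31 and TUBA3E were the other 2. All 20 differences were lost with the replicate block.

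**Figure D5:**
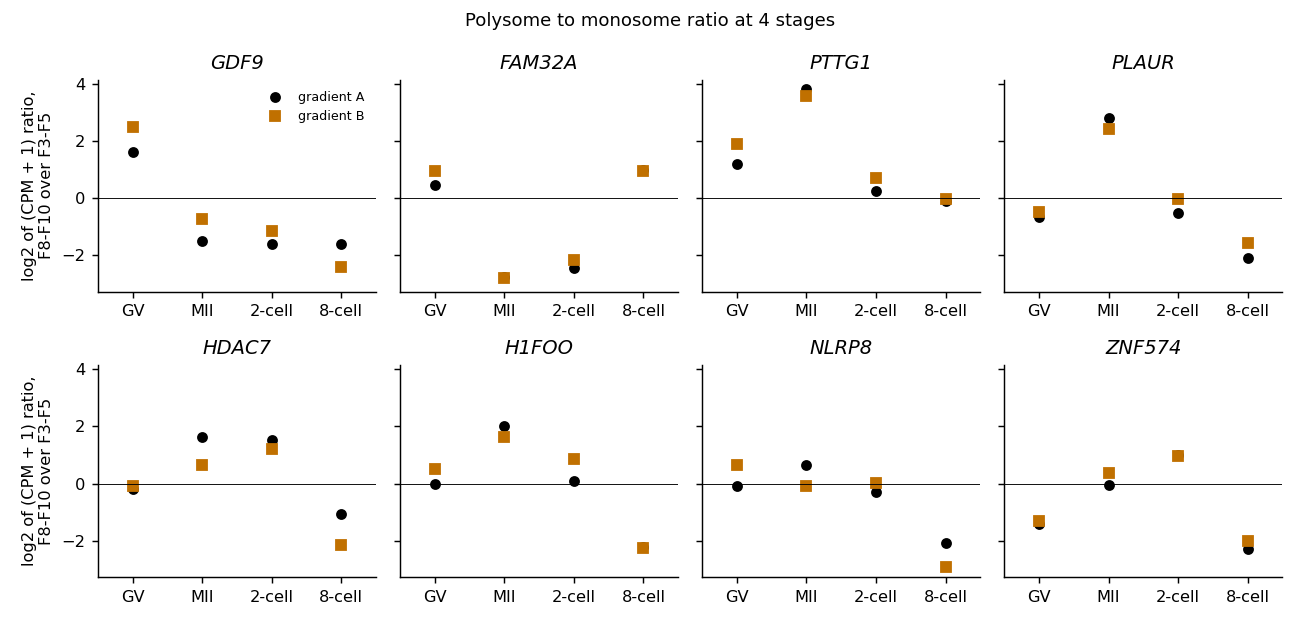
Log2 ratio of polysome to monosome level (CPM + 1, scaled over 16 pools; y axis) of 8 genes at 4 stages (x axis), in gradients A (circles) and B (squares). GDF9 changes side between GV and MII, PTTG1 and PLAUR stand out in MII oocytes, and H1FOO, NLRP8, HDAC7 and ZNF574 lie below 0 in 8-cell embryos.

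Against 8-cell embryos, differences were read for genes that passed in both the fit of 16 pools and that of 8 pools. Among the genes selected to be named, 17 had a higher and 28 a lower ratio in 2-cell embryos. Without the genes named only because they were called, the counts were 12 and 5. Over all genes tested at the 2-cell stage, 267 had a higher and 158 a lower ratio in the fit of 8 pools. NLRP8 was at 13840 and 9181 CPM in polysomes and 57930 and 69970 CPM in monosomes of 8-cell embryos, against near equal levels at the 2-cell stage (difference 2.34 ± 0.46, SE, adjusted p = 0.00721, edgeR). BMP15 (1.98 ± 0.36), H1FOO (2.69 ± 0.46), MOS (2.19 ± 0.38), UHRF1 (2.28 ± 0.52) and HDAC7 (3.0 ± 0.51) differed in the same direction. The chaperonin subunit CCT8 (-3.63 ± 0.43), EIF1AX (-3.56 ± 0.72), KIF2C (-3.10 ± 0.50) and EEF1A1 (-2.44 ± 0.35) differed the other way. So did CDH1, at 294 and 342 CPM in polysomes and 277 and 281 CPM in monosomes of 8-cell embryos (-1.81 ± 0.50, adjusted p = 0.0307). Without gradient A or B of the 2-cell embryos, 73 and 167 genes differed in place of 2002.

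The lists moved between stages as follows. The median log2 difference of cytosolic ribosomal proteins was 0.49 at the 2-cell stage, against 1.19 at GV, 0.32 at MII and 2.04 at the 8-cell stage, and 13 of 81 genes had a lower ratio than in 8-cell embryos and 0 a higher one in the fit of 8 pools, where 158 of all genes had a lower ratio and 267 a higher one. Nuclear oxidative phosphorylation genes had medians of 0.62, 1.71, 0.71 and 1.91 in the same order, and 0 of 81 differed from GV oocytes in the fit of 16 pools (edgeR), while 10 had a lower ratio and 0 a higher one in the fit of 12 pools, where 332 of all genes had a lower ratio and 297 a higher one. For maternal effect genes the medians were 0.25, 0.14, 0.32 and -1.47, and 9 of 39 had a higher ratio than in 8-cell embryos and 1 a lower one in the fit of 8 pools. Zona and oocyte-secreted factors had medians of -0.31, 0.70, -0.39 and -1.94, and kinetochore and spindle genes 0.10, 1.01, 0.64 and 1.40. The 13 genes of the mitochondrial genome had medians of 2.78, 3.03, 1.93 and 0.37. Within GV oocytes, MII oocytes and 8-cell embryos, 12, 0 and 0 of them were called (edgeR). Over all genes tested, the medians were between -0.09 and 0.05.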

How the data were processed

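RNA of each gradient fraction was amplified with Smart-seq V4 and sequenced from Nextera XT libraries, per the labels. The authors quantified reads with Salmon and deposited expected counts per gene, not whole in 16.0% of the 2-cell values, which were rounded to whole numbers in each library before summing. The labels name the build UMD3.1 and the study's methods another. Counts of F8, F9 and F10 and of F3, F4 and F5 were summed within each gradient. Genes were filtered on low counts (filterByExpr), scaled by TMM and tested with the quasi-likelihood F test of edgeR 4.0.16 in R 4.3.3, on 4 pools for the 2-cell comparison and on 16 pools for the stage interactions, with Benjamini-Hochberg adjustment over all genes tested and a threshold of 0.05. The study used edgeR's likelihood ratio test. It was tried here, as were DESeq2 1.42.0, limma-voom (limma 3.58.1), other scalings, filters and pools. Ratios per gradient are log2 of (CPM + 1), with a pseudocount of 1 CPM. The scripts were tested on simulated data.

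The heavy and light pools of a gradient come from the same lysate. Their A minus B deviations correlated at r = 0.134 over 13008 genes, and the gradient letter was fitted as a replicate block. The 2 gradients are separate pools of embryos, and the p-values measure the spread between them. Totals of the pooled libraries were 9155968 to 12234878 counts, which set the counting error only. Named genes were the 12 called genes in each direction with the largest log2 difference, at least 10 CPM in the higher class and fractions separated in both gradients, the extremes and the most abundant member of each list, genes the study names, and genes called between stages. The members and lists were chosen with earlier results of these data known. Lists were not tested as sets. Some members counted in the lists are not reported here by name. Sequences and protein lengths were not used here.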

Additional observations from a re-analysis of the deposited data

Results flagged for a closer look

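The ratio of polysome to monosome level differed between 2-cell embryos and another stage, by the interaction test of edgeR, for genes given here as the log2 difference, 2-cell minus the other stage.

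Against GV oocytes, all 20 genes that passed are listed. The ratio was lower in 2-cell embryos for EIF1AX (-5.08), RPL5 (-4.16), PARK7 (-3.69), STMN1 (-3.53), GDF9 (-3.49), PEBP1 (-3.39), PRDX4 (-3.22), FAM32A (-3.14), DSTN (-2.98), MORF4L2 (-2.79), EIF1B (-2.64), CCT8 (-2.61), CFAP20 (-2.54), RSL1D1 (-2.47), RACGAP1 (-2.26) and CXHXorf56 (-2.17). It was higher for LLGL2 (3.80), TUBA3E (2.77), ZNF574 (2.36) and RNF31 (2.34). TUBA3E and RPL5 have near-identical copies, among which reads can be split. With the replicate block 0 of these passed, and 1617 genes had an unadjusted p-value below 0.05.

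Against MII oocytes, the ratio was lower for PTTG1 (-3.23) and PLAUR (-2.93). With the replicate block 0 genes passed.

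Against 8-cell embryos, genes are given that the rule of size, level and lists named, that passed in the fit of 16 pools and in that of 8 pools, and that had more than 3 counts in each class. Genes named only because they were called are left out. With them, 17 genes had a higher and 28 a lower ratio in 2-cell embryos. Over all genes tested at the 2-cell stage, 267 had a higher and 158 a lower ratio in the fit of 8 pools. Neither selection of named genes gives the balance of directions. The ratio was higher in 2-cell embryos for ZNF574 (3.14), HDAC7 (3.0), U2AF2 (2.90), H1FOO (2.69), TACC3 (2.57), DAG1 (2.34), NLRP8 (2.34), STAR (2.31), UHRF1 (2.28), MOS (2.19) and BMP15 (1.98). It was lower for PLAT (-5.31), PSMA1 (-4.67), FAM32A (-3.39), H3F3A (-2.62) and CDH1 (-1.81). In 2-cell embryos PSMA1 was near the floor, at 0.6204 and 0.1491 CPM in polysomes and 1.685 and 1.201 CPM in monosomes. Without gradient A or gradient B of the 2-cell embryos, the number of genes that passed against this stage was 73 and 167, in place of 2002.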

How the results depend on the processing

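The numbers of genes called depended on the test and the pools, and none of the 155 named genes that were called changed direction under the alternatives run. In place of 251 genes higher in polysomes and 379 in monosomes, the likelihood ratio test of edgeR called 1034 and 1277, DESeq2 1202 and 1200, the replicate block 1005 and 1138, limma-voom 442 and 546, and the table without a filter on low counts 405 and 558. F8 to F10 against F5 alone gave 46 and 112. F9 and F10 against F3 and F4 gave 0 and 0 (edgeR, 2876 genes with an unadjusted p-value below 0.05), as did F6 to F10 against F3 to F5 (3061) and the fit of 24 pools of all 6 stages (935). Without gradient A or B the counts were 0 and 0. Without F10, added after the data were seen, they were 63 and 223, and 540 and 780 with the replicate block. RLE size factors, library totals (220 and 253), scaling before the sum, 12 pools and thinning stayed within 1.5 times. Of 155 named genes called, 155 were also called by the likelihood ratio test, DESeq2 and the replicate block, 124 with library totals and 71 without F10.

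For the differences between stages, the counts against GV oocytes (20), MII oocytes (2) and 8-cell embryos (2002) became 265, 52 and 3232 with the likelihood ratio test and 0, 0 and 236 with 24 pools. With the replicate block they were 0, 0 and 1469. Without gradient A they were 0, 0 and 73, and without gradient B 0, 0 and 167. Library totals gave 81 against GV oocytes. Fits of fewer stages, added after the data were seen, gave 631 and 17 against GV and MII oocytes (12 pools) and 431 against 8-cell embryos (8 pools). The cause of these changes was not tested. The planned description of protein length was not run. With 2 gradients, the medians of 27 lists moved by more than their spread for 9 without gradient A and 14 without gradient B.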

Other observations

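The proton pump of lysosomes and other vesicles is built from a cytosolic V1 part and a membrane V0 part. In 2-cell embryos, 7 of 12 V1 subunits tested were higher in monosomes by sign, with a median log2 difference of -0.13, and 2 of 8 V0 subunits were, with a median of 0.45. With the replicate block, 4 V1 subunits were called higher in monosomes and 1 in polysomes, and 1 V0 subunit was called in each direction. The difference between the parts was not tested, and the grouping was made after the values were seen.

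BTG4, the adaptor of the CCR4-NOT deadenylase, had its highest level in F3 of both gradients and was lower in F8 than in F10. Its level was 5469 and 4410 CPM in F3 of gradients A and B, 537 and 1758 CPM in F8, and 2563 and 2766 CPM in F10. In gradient B the dip was shallow, with 2618 CPM in F4 and 2628 CPM in F9. Over all genes tested, 915 (7.03%) had their highest level within F6 or F7 in both gradients. Alone, gradient A gave 4653 such genes and gradient B 2439, and F6 of gradient A is the library that stood apart.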
